A study of Homo sapiens with 12 samples.

Results

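The EGF receptor family and its ligands were followed across HK-2 cells with and without POLR2A knockdown and aristolochic acid I (AAI). They were taken by name as 9 of the 35238 genes measured: the receptors EGFR, ERBB2 and ERBB3, and the ligands AREG, EREG, HBEGF, TGFA, BTC and NRG1. HK-2 is an established human line from the kidney proximal tubule. AAI is a plant nephrotoxin that forms DNA adducts. RPB1, the catalytic subunit of RNA polymerase II, is the product of POLR2A. The study asked how POLR2A knockdown alters the response of injured tubule cells, with a contrast of long and short genes.

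All cells received 10 nM of a Trilencer-27 siRNA duplex, either scrambled (SCR) or against POLR2A (siB), together with vehicle (DMSO) or 25 µM AAI, for 24 hours. The groups SCR DMSO, SCR AAI, siB DMSO and siB AAI held 3 replicates each, so 12 polyA RNA libraries were compared. All 4 groups were transfected, and none shows the line without siRNA. The labels do not say whether replicates were separate cultures, so p-values measure only the spread between these samples. The knockdown was transient and used 1 siRNA sequence, and 1 cell line was studied. In bulk libraries, fewer cells with a transcript and less transcript per cell cannot be told apart.

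The receptors of this family sit in the plasma membrane and pair when a ligand binds, which starts their kinase and signals through the Ras, MAP kinase and PI3 kinase routes. EGFR binds EGF, AREG, EREG, HBEGF, TGFA and BTC. ERBB3 binds neuregulins such as NRG1 and has a weak kinase of its own, and ERBB2 has no known ligand and serves as a partner for the other receptors. The ligands are made as membrane proteins and are cut free by metalloproteases such as ADAM17. In the kidney, EGFR signaling takes part in tubule repair after injury, and its prolonged activity has been tied to fibrosis.

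The ligand genes EREG, AREG and BTC lie near each other on chromosome 4, together with EPGN. In GENCODE release 44 on hg38, EREG lies at chr4:74365145-74388749 and AREG at chr4:74445136-74455005 on the plus strand, and BTC at chr4:74744759-74794523 on the minus strand. EPGN, a further ligand at chr4:74308470-74316789, had a mean of 0.372 CPM over the 12 libraries, where CPM is the reads of a gene scaled to 1000000 reads per library. No other protein-coding gene was annotated between EPGN and BTC. HBEGF lies at chr5:140332843-140346603 and TGFA at chr2:70447284-70554193, both on the minus strand. The receptors lie at chr7:55019017-55211628 (EGFR), chr17:39687914-39730426 (ERBB2) and chr12:56076799-56103505 (ERBB3), all on the plus strand.

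The sequences just before the starts of EREG, AREG, HBEGF and TGFA are shown because EREG and HBEGF carried the called changes, AREG is the neighbour of EREG, and TGFA was the ligand nearest to a call after them. Each is the 250 bases before the RefSeq start on GRCh38.p14, 5′ to 3′ on the strand of the gene: EREG chr4:74364895-74365144, AREG chr4:74444886-74445135, HBEGF chr5:140346604-140346853 and TGFA chr2:70553827-70554076. Capitals mark the letters of 3 searched motifs, the cyclic AMP response element TGACGTCA and the AP-1 site TGANTCA, both searched on both strands, and the TATA box TATAAA, searched on the gene strand.
EREG: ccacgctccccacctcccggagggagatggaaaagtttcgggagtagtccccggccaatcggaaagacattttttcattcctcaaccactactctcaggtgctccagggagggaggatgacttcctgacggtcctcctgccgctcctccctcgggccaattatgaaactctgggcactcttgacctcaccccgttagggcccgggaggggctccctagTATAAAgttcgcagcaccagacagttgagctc
AREG: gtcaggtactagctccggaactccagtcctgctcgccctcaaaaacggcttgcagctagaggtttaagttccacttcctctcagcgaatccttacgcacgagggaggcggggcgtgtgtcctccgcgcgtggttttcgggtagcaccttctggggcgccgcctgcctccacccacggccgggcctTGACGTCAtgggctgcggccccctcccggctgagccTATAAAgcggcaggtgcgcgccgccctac
HBEGF: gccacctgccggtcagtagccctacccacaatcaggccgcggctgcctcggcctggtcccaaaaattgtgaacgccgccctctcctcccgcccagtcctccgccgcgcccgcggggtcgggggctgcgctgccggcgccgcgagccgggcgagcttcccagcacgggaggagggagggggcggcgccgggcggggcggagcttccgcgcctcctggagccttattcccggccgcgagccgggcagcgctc
TGFA: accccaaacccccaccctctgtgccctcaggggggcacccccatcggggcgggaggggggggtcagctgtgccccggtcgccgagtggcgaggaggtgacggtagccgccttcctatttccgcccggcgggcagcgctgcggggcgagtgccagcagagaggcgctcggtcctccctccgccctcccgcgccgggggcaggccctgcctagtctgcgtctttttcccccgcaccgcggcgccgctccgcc

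The AREG sequence held TGACGTCA 65 bases and TATAAA 29 bases before its start, and the EREG sequence held TATAAA 32 bases before its start. The HBEGF and TGFA sequences held none of the 3 motifs. Over all 35116 RefSeq windows of 300 bases, each reaching 250 bases before and 50 after a start, TGACGTCA was found in 1.85%, TGANTCA in 7.71% and TATAAA in 7.33%. Among 7 of the 9 genes with a window read here, a TGANTCA match was found for ERBB2 and at an inner start of EGFR. These matches are letters only and were not tested as sites.

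Library depth ran from 15844015 reads in siB AAI replicate 1 to 42805294 in SCR DMSO replicate 2, and a gene without a read could still be present at up to 0.0701 to 0.189 CPM (3 reads). POLR2A itself measured 258, 288 and 306 CPM in SCR DMSO, 673, 719 and 729 in SCR AAI, 138, 143 and 139 in siB DMSO, and 266, 220 and 210 in siB AAI, lower in every siB library than in every SCR library of the same treatment. SCR DMSO replicate 2 stood apart from its group, at 61.6 on the second principal component against -57.5 and -20.1. Of 12 proximal tubule markers, 4 had a mean of at least 1 CPM, led by PAX8 (341 CPM) and GGT1 (134 CPM), while the transporters SLC22A6 and SLC22A8 were at or under the limit in all libraries. All 7 epithelial markers were present. Of 5 leukocyte markers CD3E was at 0 and CD68 led, with a sum of 60.6 to 98.4 CPM. The summed fibroblast markers were at 63.9 to 85.1 CPM in the DMSO libraries and at 41.5 to 54.7 CPM in the AAI libraries. The summed endothelial markers were at 1.39 to 1.94 CPM in siB DMSO and 3.75 to 5.62 CPM in siB AAI, and at 1.17 to 2.50 CPM in SCR DMSO and 1.55 to 1.61 CPM in SCR AAI. The first sum was lower with AAI in SCR and siB cells and the second higher with AAI in siB cells, and their part in the changes of the 9 genes was not tested.

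EGFR, the receptor for most ligands of the family, ranged from 215 to 498 CPM. Its levels were 435.5, 254 and 498 CPM in SCR DMSO, 215, 229 and 332 in SCR AAI, 418, 332 and 299.6 in siB DMSO, and 274, 262 and 234 in siB AAI. The siB AAI libraries all lay under the siB DMSO libraries, whereas in SCR cells the groups overlapped through SCR DMSO replicate 2. Changes are given on the log2(CPM + 1) scale from limma, and a call, raised or lowered, needed a Benjamini-Hochberg adjusted p under 0.05 together with a change of at least 2-fold. With AAI, EGFR differed by -0.44 in siB cells (SE 0.133, adjusted p = 0.0212), which passed the adjusted p but not the 2-fold limit. It no longer passed without siB AAI replicate 3 (-0.37, adjusted p = 0.0924) or with all 4 groups in 1 fit (adjusted p = 0.202). In SCR cells it differed by -0.58 (SE 0.306, adjusted p = 0.27), and without SCR DMSO replicate 2 by -0.87 (adjusted p = 0.0226), again under 2-fold. The SCR value was -0.39 without SCR DMSO replicate 3 (adjusted p = 0.542) and -0.46 without SCR AAI replicate 1 (adjusted p = 0.56).

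ERBB2, the partner receptor without a ligand, varied least of the 9 genes, 1.45-fold between its lowest and highest library. It measured 138, 117 and 124 CPM in SCR DMSO, 147, 141 and 134 in SCR AAI, 135, 154 and 151 in siB DMSO, and 135, 106 and 119 in siB AAI. The siB AAI libraries lay under the siB DMSO libraries by a narrow margin, and the other groups overlapped. The difference with AAI was 0.15 in SCR cells (95% interval -0.28 to 0.58, adjusted p = 0.632) and -0.29 in siB cells (95% interval -0.56 to -0.03, adjusted p = 0.0602). ERBB2 shares 8884 bases with PGAP3 (mean 16.6 CPM) and 1931 bases with MIEN1 (mean 20.3 CPM) on the opposite strand, and whether counting used strand is not given in the sources used here, so some reads could belong to either gene.

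ERBB3, the neuregulin receptor, was the scarcest of the 3 receptors per kb of transcript in every group, with 4.40 to 19.2 CPM. It measured 19.2, 4.84 and 11.8 CPM in SCR DMSO, 10.8, 4.40 and 7.01 in SCR AAI, 10.8, 10.1 and 10.6 in siB DMSO, and 17.0, 7.20 and 7.93 in siB AAI. In 3 of the 4 groups replicate 1 was far above replicate 2, and all groups overlapped. No comparison passed the test for ERBB3. The 95% interval of its change with AAI ran from -1.66 to 0.61 in SCR cells and from -0.68 to 0.55 in siB cells, so a 2-fold fall could not be told from no change in SCR cells.

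EREG, encoding epiregulin, had the widest range of all 9 genes, 17.6-fold between libraries. It measured 19.9, 10.7 and 47.84 CPM in SCR DMSO, and 47.82, 151 and 188 in SCR AAI. The siB cells held 58.6, 41.8 and 44.05 CPM with DMSO, and 54.3, 154 and 139 with AAI. Replicates 2 and 3 of both AAI groups lay far above all DMSO libraries, while replicate 1 of both AAI groups lay at the level of the highest DMSO libraries. In siB cells EREG rose with AAI by 1.13 (SE 0.337, 95% interval 0.37 to 1.89, adjusted p = 0.0188), a 2.19-fold change. This call was lost without siB AAI replicate 2 (0.85, adjusted p = 0.0818), without siB AAI replicate 3 (0.93, adjusted p = 0.0889) and without siB DMSO replicate 3 (1.07, adjusted p = 0.0519), while without siB AAI replicate 1 the change was 1.60. It was also lost when all 4 groups shared 1 fit (adjusted p = 0.161).

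In SCR cells the EREG difference was 2.29 (SE 0.635, 95% interval 0.83 to 3.76), or 4.90-fold, and missed the threshold (adjusted p = 0.0539). Same-numbered libraries of SCR DMSO and SCR AAI deviated from their group means together over all genes, so they were treated as paired. EREG was higher with AAI in 3 of 3 same-numbered pairs, by 1.23, 3.70 and 1.95. With the replicate number as a block, EREG passed the test at the same change (adjusted p = 0.00889). Without SCR DMSO replicate 2, which stood apart, it also passed, at 1.81 (adjusted p = 0.0243), as it did without SCR DMSO replicate 3, at 2.84 (adjusted p = 0.0375). With the filter on low values applied anew, it did not pass with any of the other 4 libraries left out. Adjusted p was 0.0726 without SCR DMSO replicate 1, and 0.0727, 0.226 and 0.257 without SCR AAI replicates 1, 2 and 3. Over the same genes as in the full comparison, it did pass without SCR AAI replicate 1, at 2.89 (adjusted p = 0.0358). In all, EREG was called in SCR cells in 8 of 20 alternative settings. These count each left-out library both with the filter applied anew and over the same genes. Under AAI the siB and SCR levels differed by -0.07 (95% interval -1.06 to 0.91, adjusted p = 0.943). That interval holds a 2-fold lower level in siB cells but stops short of a 2-fold higher one.

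**Figure D1:**
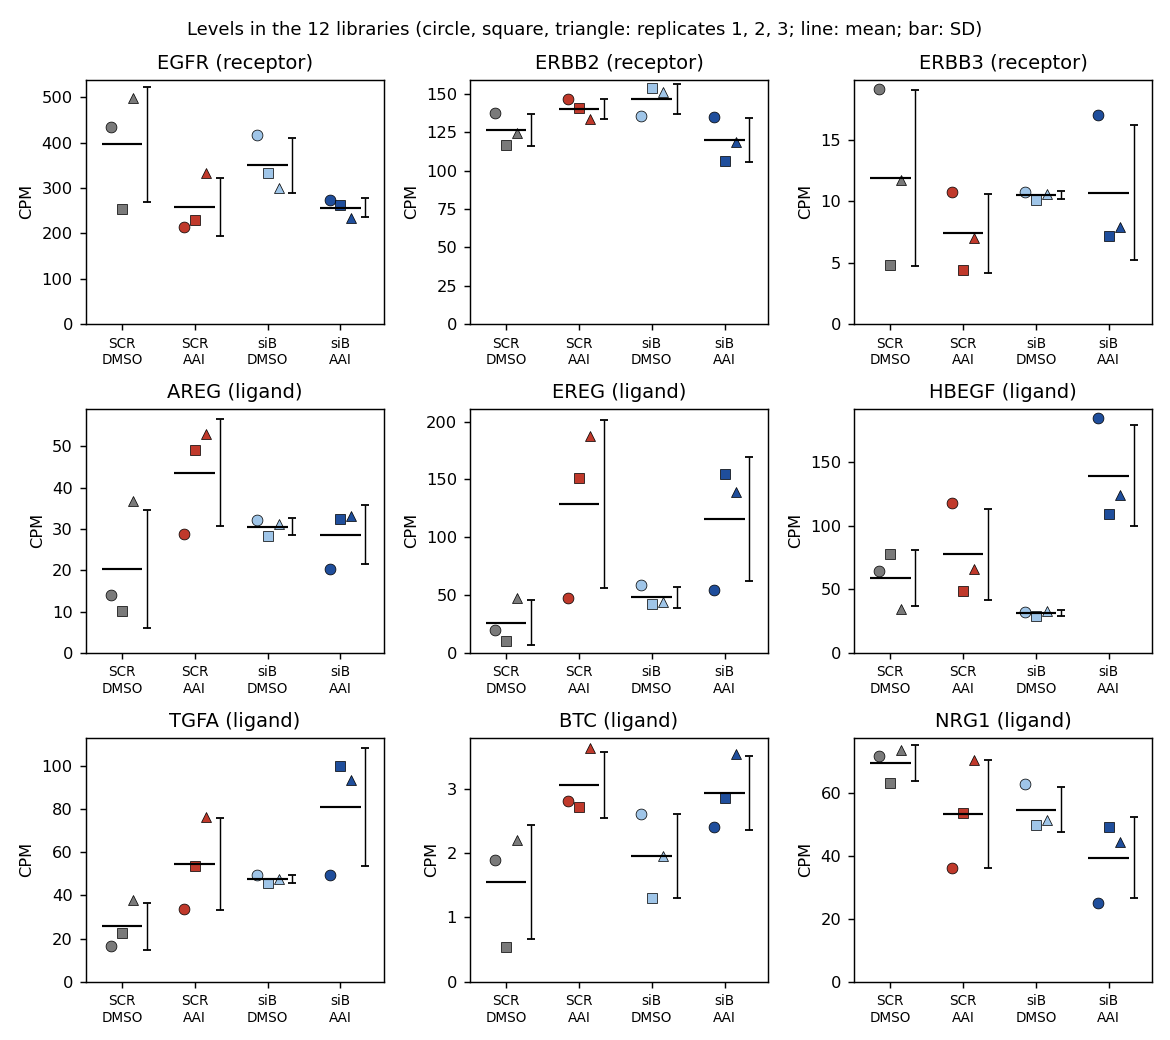
Levels of the 3 receptors and 6 ligands in CPM in each of the 12 libraries, by group, with circles, squares and triangles for replicates 1, 2 and 3, a line at the group mean and a bar of 1 SD. HBEGF in siB AAI (109 to 184 CPM) lies clear of siB DMSO (29.1 to 33.0 CPM), and in both AAI groups replicate 1 is the lowest for EREG and the highest for HBEGF.

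HBEGF, encoding heparin-binding EGF, gave the firmest change. It measured 31.9, 29.1 and 33.0 CPM in siB DMSO and 184, 109 and 124 in siB AAI. In SCR cells it measured 64.5, 77.5 and 34.3 CPM with DMSO and 118, 48.8 and 65.7 with AAI. The siB DMSO libraries held the lowest HBEGF levels of all and lay close together, the siB AAI libraries did not overlap with them, and the SCR groups overlapped broadly. HBEGF rose with AAI in siB cells by 2.08 (SE 0.180, 95% interval 1.68 to 2.49, adjusted p = 2.2e-05), a 4.23-fold change, and this call held in 20 of 20 alternative settings. In SCR cells the difference was 0.37 (SE 0.406, 95% interval -0.56 to 1.31, adjusted p = 0.595), with AAI above DMSO in 2 of 3 same-numbered pairs. That value turned on single libraries, at 0.026 without SCR AAI replicate 1, 0.033 without SCR DMSO replicate 3 and 0.65 without SCR AAI replicate 2.

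The difference between these responses of HBEGF was tested as an interaction of siRNA and AAI. It was 1.71 (SE 0.486, 95% interval 0.65 to 2.77) and did not pass (adjusted p = 0.121), with 1.47 (adjusted p = 0.0727) when SCR DMSO replicate 2 was left out. Without SCR AAI replicate 1, the SCR AAI library with the highest HBEGF, the interaction was 2.05 and passed (adjusted p = 0.0458). Under AAI, siB exceeded SCR by 0.90 (SE 0.282, 95% interval 0.28 to 1.51, adjusted p = 0.0659), higher in 3 of 3 same-numbered pairs by 0.64, 1.15 and 0.90. With the replicate number as a block, same-numbered libraries were treated as paired. The adjusted p was then 4.43e-08 at the same 1.86-fold difference, too small for a call. In limma, the lowest adjusted p over all genes was 2.09e-40 with this block and 0.000582 without it. The size of a p from this block fit was therefore not read as strength of support. When SCR AAI replicate 1 was left out the difference was 1.24 and was called (adjusted p = 0.000316).

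AREG, encoding amphiregulin, neighbours EREG on chromosome 4 and is a ligand of EGFR. It measured 14.1, 10.2 and 36.7 CPM in SCR DMSO and 28.8, 49.1 and 53.0 in SCR AAI. The siB cells held 32.2, 28.2 and 31.2 CPM with DMSO and 20.4, 32.4 and 33.1 with AAI. In SCR cells replicates 1 and 2 with DMSO lay under all AAI libraries and replicate 3 did not, whereas in siB cells the AAI levels lay on both sides of the DMSO levels. The difference with AAI was 1.22 in SCR cells (SE 0.470, adjusted p = 0.142) and -0.12 in siB cells (SE 0.187, 95% interval -0.54 to 0.30, adjusted p = 0.611). With the replicate block, AREG passed in SCR cells (adjusted p = 0.0342), and it was higher with AAI in 3 of 3 pairs. Without SCR DMSO replicate 2 the SCR difference was 0.86 (adjusted p = 0.127), and without SCR DMSO replicate 3 it was 1.73 and passed (adjusted p = 0.0389). The interaction for AREG was -1.34 (SE 0.551, adjusted p = 0.309), so the responses of AREG in SCR and siB cells were not shown to differ.

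TGFA, encoding transforming growth factor α, measured 16.4, 22.6 and 37.9 CPM in SCR DMSO and 33.7, 53.7 and 76.4 in SCR AAI. The siB cells held 49.46, 45.8 and 47.7 CPM with DMSO and 49.48, 100.1 and 93.3 with AAI. All siB DMSO libraries lay above all SCR DMSO libraries, and siB AAI replicate 1 lay at the siB DMSO level while replicates 2 and 3 lay far above it. With AAI the difference in siB cells was 0.69 (SE 0.231, adjusted p = 0.0309), a 1.61-fold difference that passed the adjusted p but not the fold limit. Without siB AAI replicate 1 it was 1.01 and was called (adjusted p = 0.000277). At the lowest it was 0.51 with a library left out, and its adjusted p reached 0.158 over the 20 alternatives. In SCR cells it was 1.07 (SE 0.393, adjusted p = 0.128), higher in 3 of 3 pairs by 0.997, 1.21 and 0.993. With the replicate block TGFA passed in SCR cells (adjusted p = 0.00975). Without SCR AAI replicate 3 the SCR difference was 0.79 (adjusted p = 0.442).

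BTC, encoding betacellulin, was the scarcest of the 6 ligands per kb of transcript in every group, with 0.537 to 3.64 CPM and 23 to 93 reads per library. It measured 1.89, 0.537 and 2.21 CPM in SCR DMSO, 2.82, 2.72 and 3.64 in SCR AAI, 2.61, 1.31 and 1.95 in siB DMSO, and 2.40, 2.86 and 3.54 in siB AAI. The SCR AAI libraries all lay above the SCR DMSO libraries, and the siB groups overlapped. The difference with AAI was 0.74 in SCR cells (SE 0.306, adjusted p = 0.169) and 0.43 in siB cells (SE 0.212, adjusted p = 0.119), and the log2(CPM + 1) scale understates changes at such low levels. Without SCR DMSO replicate 2, the lowest library, the SCR difference was 0.41 (adjusted p = 0.256).

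NRG1 on chromosome 8, the neuregulin ligand of ERBB3, measured 71.7, 63.1 and 73.5 CPM in SCR DMSO, 36.0, 53.7 and 70.3 in SCR AAI, 62.8, 49.7 and 51.4 in siB DMSO, and 24.9, 49.1 and 44.3 in siB AAI. Among the 6 ligands, only NRG1 had lower group means with AAI in both SCR and siB cells. In siB cells the groups came close without overlapping, and siB AAI replicate 1 was the lowest library of all. The difference with AAI was -0.42 in SCR cells (SE 0.276, adjusted p = 0.37) and -0.51 in siB cells (SE 0.229, adjusted p = 0.088), and neither passed. A single library carried much of each, since the values were -0.17 without SCR AAI replicate 1 and -0.22 without siB AAI replicate 1. The gene overlaps 6 other annotated genes, and reads in those stretches could not be assigned here.

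Counted together for AAI against DMSO in SCR cells, 0 of the 9 genes were called, against 10.5% of the 14228 genes tested. The limma test gave an unadjusted p under 0.05 for 4 of 9, EREG, AREG, TGFA and BTC, against 27.0% of all genes, and only BTC did not overlap between groups, against 33.8%. The median change of the 9 genes was 0.37 and that of all genes 0.18. With the replicate block 3 of 9 were raised, EREG, AREG and TGFA, and the block raised the count over all genes from 1489 to 1917. Scaling with median-ratio size factors moved the median of all genes from 0.18 to -0.02 and the split of called genes from 1100 raised and 389 lowered to 903 and 717. On that scale EREG was raised (2.08, adjusted p = 0.0431), and ERBB2 stood at -0.06.

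For AAI against DMSO in siB cells, 2 of 9 genes were called, HBEGF and EREG, both raised, against 19.7% of 14928 genes called and 13.9% raised. These shares are close, so the count itself does not set the family apart. At an adjusted p under 0.05 with any fold, HBEGF, EREG, TGFA and EGFR passed, against 52.2% of all genes. The groups did not overlap for HBEGF and TGFA, which were higher with AAI, and for EGFR, ERBB2 and NRG1, which were lower, against 60.8% of all genes. The nearest siB AAI and siB DMSO libraries were close for TGFA (49.48 and 49.46 CPM), ERBB2 (134.9 and 135.4 CPM) and NRG1 (49.1 and 49.7 CPM). The median change was -0.07 over the 9 genes and 0.10 over all genes.

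**Figure D2:**
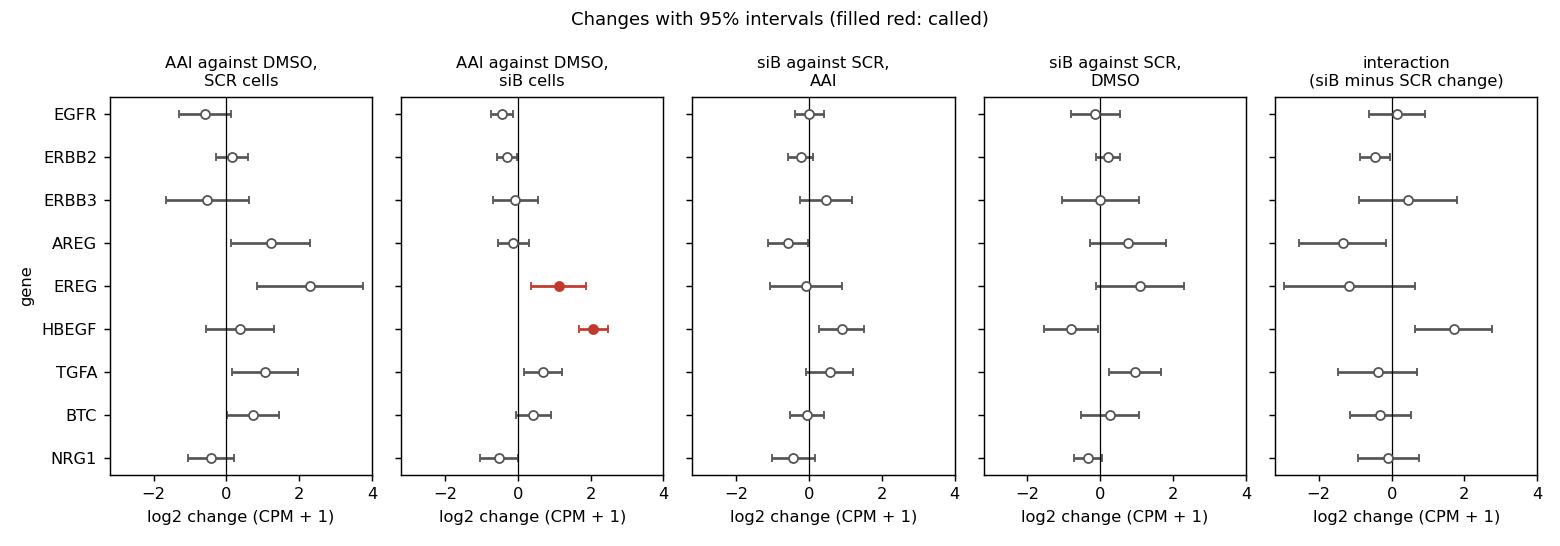
Change of each gene on the log2(CPM + 1) scale with its 95% interval, for 5 comparisons. Filled red points are the 2 called changes, HBEGF (2.08) and EREG (1.13) with AAI in siB cells, and open points are changes that were not called.

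For siB against SCR under AAI, 0 of 9 genes were called, against 3.67% of 14946 genes, and all 9 overlapped between groups, against 30.8% of genes that did not. The limma test gave an unadjusted p under 0.05 for HBEGF and AREG, 2 of 9, against 25.5% of all genes. AREG was lower in siB by 0.48, 0.58 and 0.66 in the same-numbered pairs, and the fitted difference was -0.58 (SE 0.251, adjusted p = 0.172). TGFA was 0.57 higher (SE 0.299, adjusted p = 0.254), and higher in 3 of 3 same-numbered pairs by 0.54, 0.89 and 0.29. With the replicate block its adjusted p was 0.00122, at a difference too small for a call. That p came from the same block fit as the one for HBEGF above and has the same limit. EGFR differed by 0.01 (95% interval -0.38 to 0.41, adjusted p = 0.978). That interval for EGFR holds no 2-fold difference.

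For siB against SCR with DMSO, 0 of 9 genes were called, against 0% of 13606 genes. The limma test gave an unadjusted p under 0.05 for 644 genes, 4.73%, and voom in limma also called 0. Among the members, TGFA at 0.95 (SE 0.300, adjusted p = 1) and HBEGF at -0.81 (SE 0.307, adjusted p = 1) had an unadjusted p under 0.05, 2 of 9. The groups did not overlap for TGFA, which was higher in siB, and for HBEGF and NRG1, which were lower, against 11.9% of all genes. Without SCR DMSO replicate 2 the differences were 0.90 for TGFA and -0.57 for HBEGF, with adjusted p of 0.215 and 0.265. POLR2A, the target of the siRNA, differed by -1.01 in the same comparison (SE 0.132, adjusted p = 0.505) and was not called either, although its groups did not overlap, so a missing call says little here.

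The interaction of siRNA and AAI, called at an adjusted p under 0.05 with no fold limit, was called for 0 of 9 genes, against 1.61% of 15325 genes. HBEGF, AREG and ERBB2 had an unadjusted p under 0.05 in limma, 3 of 9 against 13.3%. The interaction for ERBB2 was -0.45 (SE 0.192, adjusted p = 0.333) and that for EREG was -1.16 (SE 0.824, adjusted p = 0.636). Each group enters 2 of the pairwise comparisons and the interaction, so the values of one comparison are not independent of the next.

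The replicate numbers carried a pattern of their own within the ligands. In both SCR AAI and siB AAI, replicate 1 had the highest HBEGF and the lowest EREG, AREG, TGFA and NRG1 of its group. For EREG in siB AAI replicate 1 held 54.3 CPM against 154 and 139 in replicates 2 and 3, and for HBEGF it held 184 CPM against 109 and 124. Both replicate 1 libraries were the shallowest of their groups, with 18111382 reads in SCR AAI and 15844015 in siB AAI, and the part of depth in this pattern was not tested. Over all genes, the same-numbered SCR AAI and siB AAI libraries deviated from their group means together, with correlations of 0.64, 0.33 and 0.30 for replicates 1, 2 and 3.

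Levels were ranked across the 9 genes after division by the length of the annotated canonical transcript, as CPM per kb. In SCR DMSO the order was EGFR (40.0 CPM per kb), ERBB2 (27.7), HBEGF (24.9), AREG (16.5), TGFA (6.23), NRG1 (5.79), EREG (5.66), ERBB3 (2.12) and BTC (0.583). Each neighbouring pair in that order overlapped except ERBB3 and BTC. In siB AAI HBEGF led, at 59.0 CPM per kb, clear of ERBB2 (26.3), and ERBB2, EGFR, EREG, AREG and TGFA followed at 26.3 to 19.7, each overlapping with its neighbour. In SCR AAI AREG led at 35.4 CPM per kb with HBEGF (32.8), ERBB2 (30.8), EREG (27.9) and EGFR (26.1) behind it, each overlapping the next, and in siB DMSO EGFR (35.3) and ERBB2 (32.2) led, clear of AREG (24.8). EREG stood at rank 7 per kb in SCR DMSO, rank 6 in siB DMSO and rank 4 in both AAI groups.

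Summed over the 6 ligands, the level was 53.7, 54.4 and 70.8 CPM per kb in SCR DMSO and 95.9, 112 and 137 in SCR AAI. The siB libraries gave sums of 70.6, 60.0 and 65.4 with DMSO and 121, 136 and 137 with AAI. Every AAI library lay above every DMSO library in this sum, whose members were chosen by name, and no test was run on it. The 3 receptors summed to 69.8 ± 15.3 CPM per kb (SD, n = 3) in SCR DMSO, 58.2 ± 5.13 in SCR AAI, 69.4 ± 4.26 in siB DMSO and 54.1 ± 5.38 in siB AAI.

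The shares of the ligands in this sum varied between replicates and groups. HBEGF made up 52.1%, 18.5% and 20.3% of it in SCR AAI, and 64.3%, 34.2% and 38.3% in siB AAI, replicates 1 to 3. EREG made up 10.8%, 29.3% and 29.7% in SCR AAI and 9.70%, 24.7% and 21.9% in siB AAI. AREG made up 24.3%, 35.6% and 31.3% in SCR AAI and 13.6%, 19.4% and 19.6% in siB AAI, with all siB AAI shares under all SCR AAI shares. In siB DMSO the shares were nearly the same in all replicates, with AREG at 37.9% ± 0.839, HBEGF at 20.4% ± 1.12 and TGFA at 17.7% ± 0.757 (SD, n = 3).

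**Figure D3:**
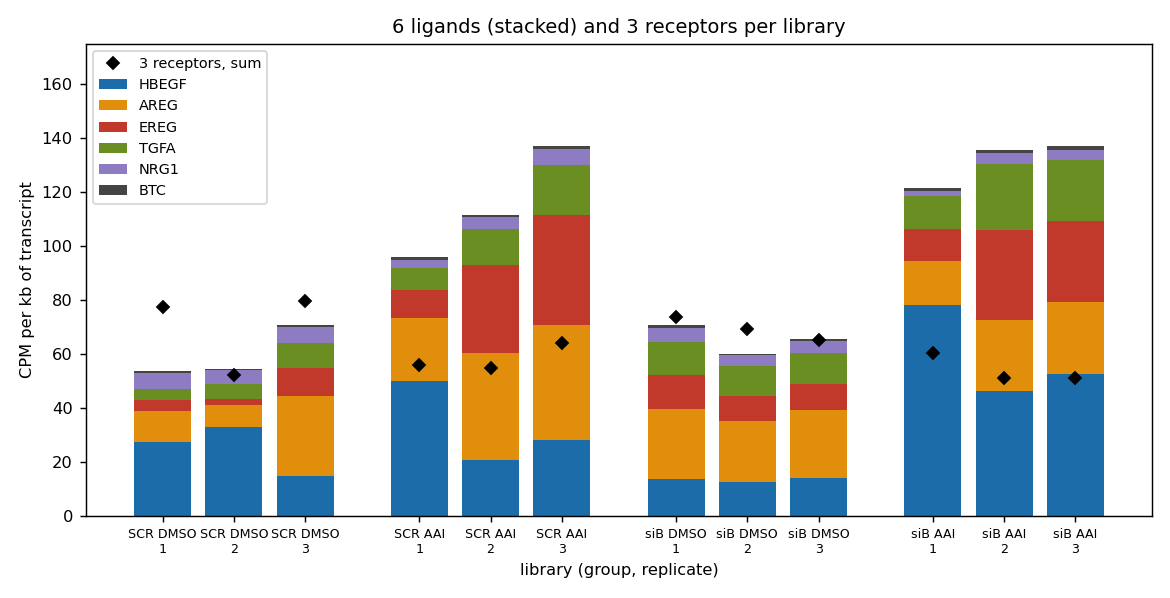
Stacked levels of the 6 ligands in CPM per kb of transcript in each library, with black diamonds for the sum of the 3 receptors. The ligand sum lies between 53.7 and 70.8 in the DMSO libraries and between 95.9 and 137 in the AAI libraries, and the HBEGF share is largest in siB AAI replicate 1 (64.3%).

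By the length of the gene from first to last base, the contrast of long receptor genes with short ligand genes held for part of the family only. With short set under 30 kb and long over 100 kb, EGFR (193 kb) was the 1 long receptor of 3, ERBB2 (42.5 kb) was medium and ERBB3 (26.7 kb) was short. Of the 6 ligands 3 were short, AREG (9.87 kb), HBEGF (13.8 kb) and EREG (23.6 kb), while BTC (49.8 kb) was medium and TGFA (107 kb) and NRG1 (1216 kb) were long. Of 13395 expressed genes with a span, 47.7% were short and 19.4% long. The 2 genes called with AAI in siB cells, HBEGF and EREG, were short, but AREG, the shortest, measured -0.12 there, and the long TGFA measured 0.69. The long NRG1 and EGFR measured -0.51 and -0.44 in siB cells, but without siB AAI replicate 1 NRG1 measured -0.22, beside -0.49 for EGFR, -0.43 for the short ERBB3 and -0.38 for ERBB2. In SCR cells, where none of the 9 genes was called, the short EREG, AREG, HBEGF and ERBB3 measured 2.29, 1.22, 0.37 and -0.52. The long TGFA, NRG1 and EGFR measured 1.07, -0.42 and -0.58 there. With 9 genes, and members of the short and long classes on both sides of 0, no relation of change to span was tested.

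**Figure D4:**
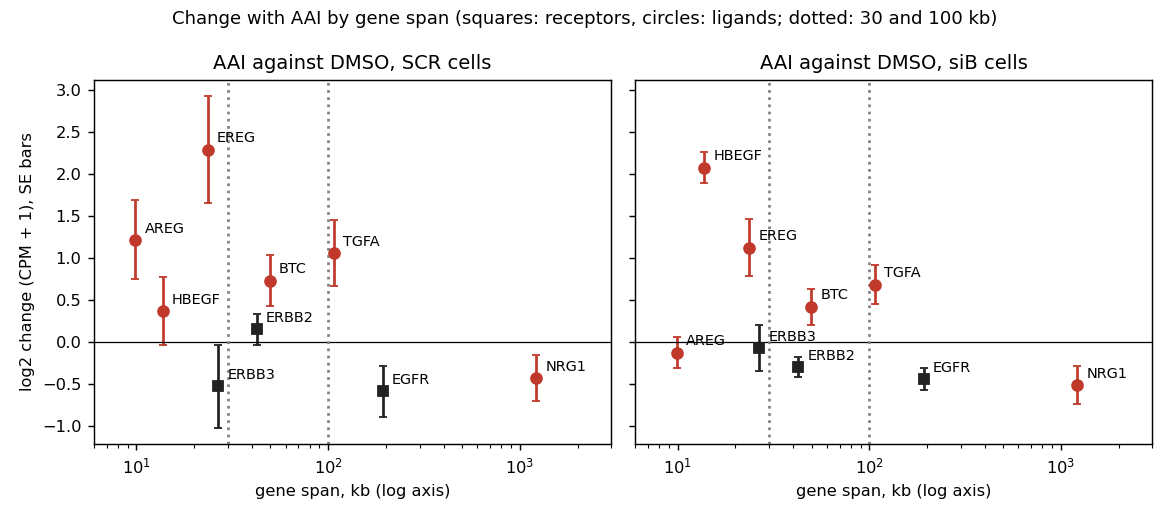
Change with AAI on the log2(CPM + 1) scale, with bars of 1 SE, against gene span in kb on a log axis, in SCR cells (left) and siB cells (right), with squares for receptors and circles for ligands and dotted lines at 30 and 100 kb. The short genes HBEGF and EREG lie at 2.08 and 1.13 in siB cells, the short AREG lies at -0.12, and the long NRG1 and EGFR lie at -0.51 and -0.44.

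Of the 6 other receptors and ligands of the family, ERBB4, NRG2, NRG3, NRG4 and EPGN were at a mean of under 1 CPM. EGF was tested in every comparison and measured 6.01, 1.80 and 5.96 CPM in SCR DMSO, 1.16, 1.04 and 1.53 in SCR AAI, 7.01, 5.46 and 4.29 in siB DMSO, and 1.77, 2.26 and 2.57 in siB AAI. All AAI libraries lay under the DMSO libraries of the same siRNA. EGF fell with AAI in siB cells by 1.03 on the log2 scale (SE 0.204, adjusted p = 0.00241), and in SCR cells it differed by -1.20 (SE 0.369, adjusted p = 0.0748). So in siB cells the gene for EGF itself was lowered where those for HBEGF and EREG were raised. NRG4, a ligand of ERBB4, had a mean of 1.85 CPM in siB AAI and passed the filter on low values in 2 of the 5 comparisons, without a called change.

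The wider pathway was read from lists of genes. Of 6 genes for ligand shedding, ADAM17 among them, 0 were called in any of the 5 comparisons, and ADAM17 differed with AAI by 0.16 (adjusted p = 0.823) in SCR cells and 0.24 (adjusted p = 0.255) in siB cells. Of 23 signal relay genes, among them GRB2, SOS1 and AKT1, 0 were called in any comparison. The shares called over all genes were 10.5% and 19.7% with AAI in SCR and siB cells, 3.67% and 0% for siB against SCR under AAI and DMSO, and 1.61% for the interaction. Their median change with AAI was 0.13 in SCR cells and -0.05 in siB cells, beside 0.18 and 0.10 over all genes.

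Of 16 feedback inhibitors of the pathway 14 were tested, and 1 was raised and 1 lowered with AAI in SCR cells, a share near the 10.5% of all genes. In siB cells 1 of 14 was called, against 19.7% of all genes. SPRY4, an inhibitor of the Ras and MAP kinase route, measured 7.86, 9.90 and 14.5 CPM in SCR DMSO and 23.0, 22.6 and 29.0 in SCR AAI, and rose by 1.17 (SE 0.291, adjusted p = 0.0371). CBLB, a ubiquitin ligase that acts on activated receptors, measured 23.5, 8.64 and 12.5 CPM in SCR DMSO and 3.59, 3.31 and 4.66 in SCR AAI, and fell by 1.61 (SE 0.367, adjusted p = 0.0266). The AAI libraries were clear of the DMSO libraries for both genes. In siB cells CBLB also fell, by 1.72 (SE 0.192, adjusted p = 9.15e-05), from 11.97, 9.96 and 8.47 CPM to 2.97, 2.17 and 1.98, and SPRY4 was higher by 0.62 (adjusted p = 0.00318), under the fold limit.

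Of 16 genes that respond to the pathway, 0 were called with AAI in SCR cells, against 10.5% of all genes, and 1 was raised and 1 lowered in siB cells, against 19.7%. FOS, an immediate early gene, measured 3.46, 4.19 and 2.90 CPM in siB DMSO and 13.4, 12.5 and 10.6 in siB AAI, and rose by 1.55 (SE 0.179, adjusted p = 0.000114). MYC, a growth regulator, measured 265, 301 and 281 CPM in siB DMSO and 93.6, 131 and 144 in siB AAI, and fell by 1.21 (SE 0.154, adjusted p = 0.000196). Both genes respond to many signals, and their groups did not overlap. No gene of these lists was called for siB against SCR under AAI or DMSO or for the interaction.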

How the data were processed

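Groups and replicate numbers were taken from the sample titles, since another label gave DMSO as the treatment of all 12. The paper's methods say that the authors mapped paired-end reads to hg38 and obtained counts for UCSC genes on BioJupies. The aligner and the strand setting are not given in the sources used here. The authors deposited log10 values, log10(CPM + 1), for 35238 rows, of which 28 bore dates in place of names and 7627 were at 0 in all 12 libraries. CPM and whole reads were recovered from the deposited log10 values, and 100% of low values were whole within 0.1 read. Limits from 3 reads cover counting error only, as PCR can copy a molecule many times. No replicate pair held the same library (chi-square per degree of freedom at least 4.23).

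Each comparison was fitted alone in R 4.3.3 with limma 3.58.1 (trend) on log2(CPM + 1), for genes at 1 CPM or more in at least 3 of the libraries fitted, with Benjamini-Hochberg adjustment over all genes tested. All 9 members passed this filter in each comparison. A call needed an adjusted p under 0.05 and a 2-fold change, with no fold limit for the interaction, which was fitted over all 4 groups. A fold on this scale understates the change of low genes. The fit was also run on simulated reads drawn without a replicate pattern, so that run does not cover the pattern of these libraries. Spans and canonical transcripts came from GENCODE release 44, matched by symbol.

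Every member was named, with POLR2A as the check of the knockdown and EPGN as the further ligand gene near EREG, AREG and BTC. Up to 4 called genes of each list were named too. So were the 3 genes most like the receptor and the ligand of highest mean CPM. The members and lists were chosen with earlier results of these data known. A gene of the signal relay list is not reported here. Same-numbered libraries deviated from their group means together for SCR AAI with SCR DMSO (correlations 0.43, 0.49 and 0.35) and for siB AAI with SCR AAI (0.64, 0.33 and 0.30). Libraries were taken as paired where every correlation was over 0.1. This failed through replicate 2 for siB AAI with siB DMSO (0.22, 0.03 and 0.21). It failed through replicate 3 for siB DMSO with SCR DMSO (0.74, 0.61 and -0.20). The alternatives were another pseudocount, filter, scaling, set of libraries, replicate block, voom, CPM without the abundant AC010970.2, and each library left out. Each left-out library was fitted both with the filter applied anew and over the same genes, and both fits were counted.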

Additional observations from a re-analysis of the deposited data

How the results depend on the processing

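Of 994 alternatives of 45 member changes, 918 kept direction and side of the threshold, 20 gained a call, 7 lost one, all of EREG in siB cells, and 49 changed sign. Both fits of each left-out library enter these counts, so they are not separate checks. BTC has no value at a mean of at least 5 CPM, which it fails, and the interaction already uses all 4 groups. The cause of the changes below was not tested, apart from leaving out libraries or genes.

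Members called with AAI in SCR cells went from 0 to 1 with median-ratio size factors, 3 with all 4 groups in the fit and 3 with the replicate block, and to 0 to 2 with a library left out. In siB cells they went from 2 to 1 with all 4 groups, and to 1 to 3 with a library left out. For siB against SCR under AAI, and for the interaction, the range was 0 to 1. Where the libraries were not taken as paired, the replicate block left the members called at 2 for AAI in siB cells. It left them at 0 for siB against SCR with DMSO. In each, 4 of 6 libraries correlated best with their own number. The block changed no other member call.

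Genes called in all with AAI went from 1489 to 724 (SCR) and from 2944 to 1595 (siB) at a mean of at least 5 CPM, and ran from 189 to 1959 and from 1840 to 3252 with a library left out and the filter on low values applied anew. Over the same genes as in the full comparison they ran from 875 to 1984 and from 2763 to 3291. For siB against SCR under AAI, 548 went to 216 at a mean of at least 5 CPM, and to 188 to 761 with a library left out. With DMSO, 0 went to 6 with all 4 groups. The interaction went from 247 to 46 with a pseudocount of 0.1, 625 with no filter, 0 at a mean of at least 5 CPM, 389 with the replicate block, 0 with voom, and 8 to 1010 with a library left out (81 to 1010 over the same genes).

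With median-ratio size factors the sign changed for ERBB2 with AAI in SCR cells (-0.063), EGFR in siB against SCR under AAI (-0.032, and -0.0032 without AC010970.2), ERBB3 in siB against SCR with DMSO (-0.034) and NRG1 in the interaction (0.0029). With a library left out, changes crossed 0 with AAI in siB cells for ERBB3 (-0.43 to 0.14) and AREG (-0.24 to 0.099). They did so for siB against SCR under AAI for EGFR (-0.11 to 0.21), EREG (-0.67 to 0.40) and BTC (-0.16 to 0.052), and with DMSO for EGFR (-0.43 to 0.057), ERBB3 (-0.48 to 0.41) and BTC (-0.068 to 0.46). In the interaction they did so for EGFR (-0.046 to 0.44), BTC (-0.51 to 0.019) and NRG1 (-0.34 to 0.21). None of these changes was called.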

Other observations

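The genes whose levels followed EGFR most closely over the 12 libraries were PTPRE, AFF1 and ZNF532, with a root-mean-square difference from EGFR of 0.096, 0.10 and 0.13 on the centred log2(CPM + 1) scale, among 11560 genes whose median was 0.52. PTPRE, a receptor tyrosine phosphatase, had group means of 45.5 CPM in SCR DMSO, 31.0 in SCR AAI, 42.9 in siB DMSO and 31.2 in siB AAI. AFF1, a subunit of the super elongation complex, had group means of 273, 194, 249.7 and 195 CPM in the same order. The 3 genes span 179, 206 and 124 kb, against 193 kb for EGFR. Their likeness was ranked over libraries that share group, depth and replicate number, and it is a description.

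EREG was taken as the ligand with the highest mean CPM over the 12 libraries (79.8, with HBEGF at 76.6), although per kb of transcript HBEGF (32.5) and AREG (24.9) lay above it (17.3). The genes most like it were GPRC5C, DSCAML1 and DUSP6, with differences of 0.44, 0.54 and 0.58, where the median over all genes was 1.18. They span 26.8, 390 and 5.27 kb, against 23.6 kb for EREG. DUSP6, a phosphatase that switches off ERK, had group means of 40.05 CPM in SCR DMSO, 138 in SCR AAI, 117 in siB DMSO and 107 in siB AAI. With AAI it differed by 1.94 in SCR cells (SE 0.552, adjusted p = 0.0591 by limma) and by -0.20 in siB cells (SE 0.236, adjusted p = 0.499 by limma). The DUSP6 libraries of siB DMSO lay above all those of SCR DMSO, by 1.81 (SE 0.493), where no gene was called. The interaction for DUSP6 was -2.14 (SE 0.678, adjusted p = 0.165 by limma), so its responses were not shown to differ.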
